A study of Mus musculus with 6 samples.

Results

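The tripartite motif (TRIM) family was examined here in N9 microglia stimulated with LPS and in their controls. The rule for members reads the name and annotation, and takes every protein-coding gene of the deposited count table whose symbol is Trim followed by a number and at most a letter from a to d. This rule gave 68 members of the 54532 genes listed. N9 is an immortalized mouse line with microglial traits, used as a stand-in for microglia, so the samples are of a cultured line and not of brain tissue. The 3 control libraries are from cells that received nothing, and the 3 LPS libraries are from cells kept for 6 h with lipopolysaccharide (LPS) at 1 µg/ml. LPS is a component of the gram-negative outer membrane that is sensed by the receptor TLR4, and the comparison asks which genes this inflammatory stimulus changes. Gene positions are those of the deposited table, on mm10 (GRCm38). The labels number the samples of each group but do not say whether they came from separate cultures, so p-values measure the spread between these samples, which may be technical.

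Most TRIM proteins carry a RING finger, B-box zinc fingers and a coiled coil, and the RING finger transfers ubiquitin from an E2 enzyme to a substrate. The end of the protein differs between subfamilies and decides what is bound, most often through a PRY-SPRY domain, and in others through NHL repeats, a COS box or a PHD finger with a bromodomain. Several members act in innate immunity, where they restrict viruses or adjust the signals of TLR4, RIG-I, MDA5, cGAS and NF-kappa B, and a number of them are known interferon-stimulated genes. On mouse chromosome 7 the Trim5, Trim12, Trim30 and Trim34 genes form a rodent-expanded array that corresponds to the region of human TRIM5, the retroviral restriction factor.

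Total counts lay between 16363767 and 17956772 per library, so that 3 counts correspond to 0.161 to 0.190 CPM, the count scaled to library size with TMM factors. Of 13 microglia and macrophage markers 9 were tested, with a summed level of 1749 to 1834 CPM in control and 1844 to 1882 CPM in LPS libraries. Cd68 and Csf1r were abundant. Of the markers that define microglia in brain, Tmem119 had 142 to 177 counts per library, P2ry12 had 3 to 6 and Sall1 had 1 count in all. No T or B cell marker was tested (at most 0.183 CPM summed). Of 5 astrocyte markers, Aldh1l1 was lower (log2FC -0.29, adjusted p = 0.0129), and the list summed to 27.9 to 29.9 CPM in control and 21.5 to 25.2 CPM in LPS libraries. Of 5 neuron markers, Tubb3 rose (1.67, adjusted p = 7.27e-07) and Map2 fell (-0.41, adjusted p = 0.00221), at 26.3 to 27.8 and 27.7 to 32.3 CPM summed, while the defining markers Gfap, Rbfox3 and Snap25 had at most 10 counts in a library. Hepatocyte markers summed to 0.234 to 25.7 CPM in control and 0.305 to 0.548 CPM in LPS libraries, and control replicates 2 and 3 stood apart, with 155 and 292 counts of the albumin gene Alb against at most 2 elsewhere. With both of these libraries left out, an alternative chosen after seeing the data, 7 members were still up-regulated DEG. That fit assumes that the lone control library varies like the LPS libraries. The part of these transcripts in the results was not tested.

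Of the 68 members, 39 had enough counts to be tested with edgeR's quasi-likelihood test. A differentially expressed gene (DEG) has a Benjamini-Hochberg adjusted p under 0.05 over all 12296 tested genes and a log2 fold change (log2FC) beyond 1.5 in either direction. Of these 39 members 7, or 17.9%, were up-regulated DEG, beside 2.4% of all tested genes. Of the 37 members above the filter in at least 1 control library, 5 or 13.5% were, since Trim30c and Trim30d passed the filter only through LPS libraries. The 7 up-regulated DEG were Trim30c, Trim34b, Trim30d, Trim30a, Trim34a, Trim21 and Trim12c. No member was a down-regulated DEG (0.252% of all tested genes were), with 0 members past that fold at an unadjusted p under 0.05 and 0 with DESeq2. At any fold, 15 members or 38.5% were higher with LPS, beside 18.7% of all genes, and 9 members or 23.1% were lower, beside 15.7%. With control replicates 2 and 3 both left out, 13 were higher and 2 lower, Trim29 and Trim59. The other 15 did not pass the test. All LPS libraries lay above all control libraries in 15 members (38.5%, beside 23.7% of all genes) and below them in 11 members (28.2%, beside 21.5%). The median log2FC of the tested members was -0.0036, beside 0.0036 for all tested genes. In such bulk RNA, a change in the number of expressing cells and a change in RNA per cell cannot be told apart.

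**Figure D1:**
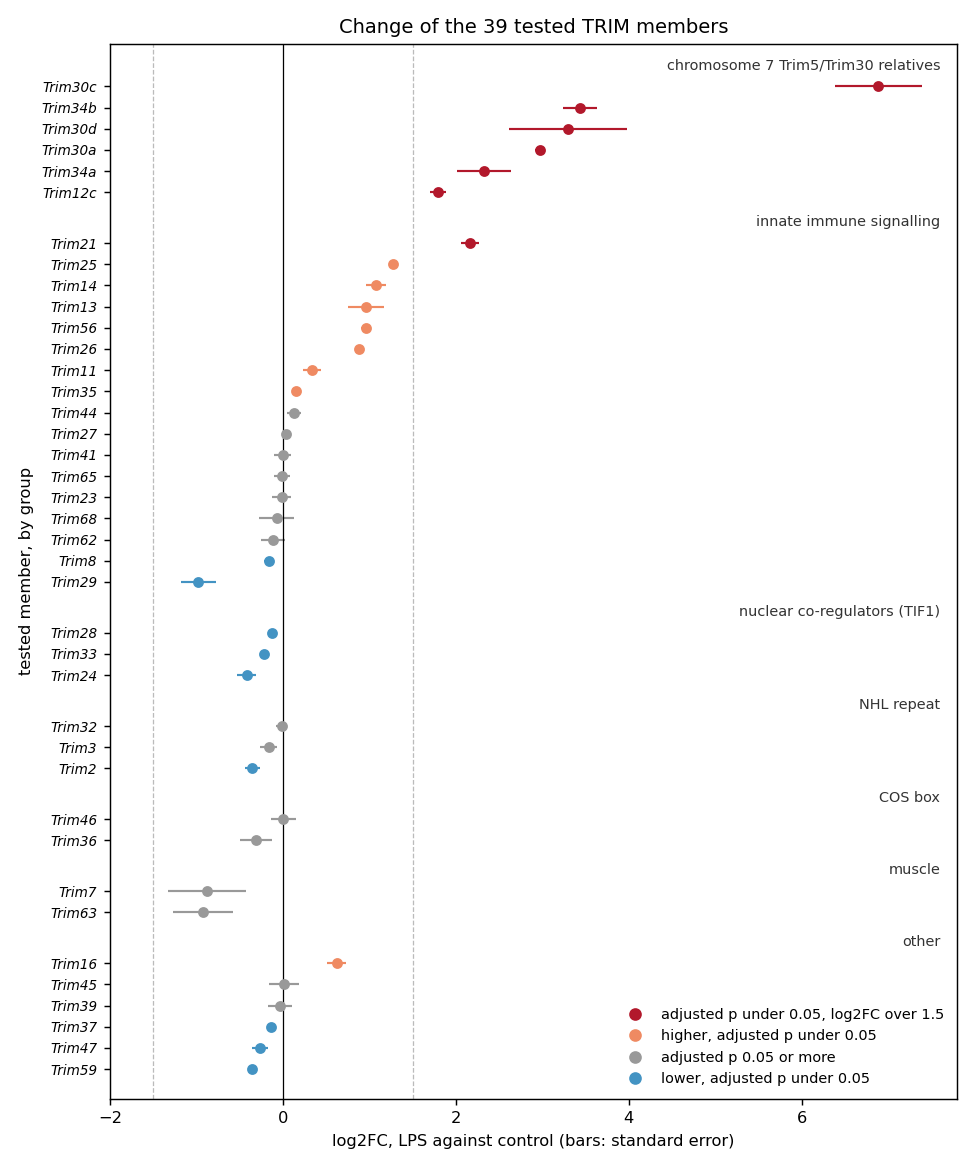
The plot gives the log2FC of each of the 39 tested members (x axis, LPS against control) with its standard error as a bar. Members are grouped by role (y axis) and coloured by call, with dashed lines at a log2FC of 1.5 in either direction. The 6 tested members of the chromosome 7 array lie between 1.79 and 6.88, and the other 33 between -0.98 and 2.16.

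The strongest changes were in the array on chromosome 7. It holds 10 members within 1 Mb of Trim30a, in the order Trim6, Trim34a, Trim5, Trim12a, Trim34b, Trim12c, Trim30b, Trim30c, Trim30a and Trim30d. The 6 that could be tested were up-regulated DEG, beside 2.4% of all tested genes. Of those 6, Trim30c and Trim30d were above the filter in LPS libraries alone and so could only be tested because they were high there. Trim30a, Trim34a, Trim34b and Trim12c were above it in control libraries too. The 4 members that were not tested had at most 10 counts in any library.

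Trim30a (chr7:104409025-104465193, minus strand) encodes a protein known to dampen TLR4 signalling to NF-kappa B through TAB2 and TAB3. It had 316, 332 and 388 counts in control replicates 1 to 3 and 2459, 2531 and 2400 in LPS replicates 1 to 3. The 2 groups are far apart and each is tight, with 19.4 ± 1.31 CPM in control and 152 ± 5.23 CPM in LPS libraries (SD, n = 3). Its log2FC was 2.97 (SE 0.06, adjusted p = 1.35e-14), and it stayed between 2.93 and 3.02 whichever library was left out.

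Trim30c (chr7:104382065-104400837, minus strand), a close relative of Trim30a, went from nearly no reads to a clear level. It had 0, 2 and 0 counts in control and 90, 96 and 71 in LPS libraries, or 0.0378 ± 0.0655 and 5.29 ± 0.844 CPM (SD, n = 3). The ratio of summed counts, scaled by library size, was 141 with a 95% exact interval of 38.7 to 1171 that covers counting error only. The fitted log2FC of 6.88 (SE 0.50, adjusted p = 4.87e-08) rests on those 2 control reads. It was 9.48 without control replicate 2, which holds them, and 5.12 with a prior count of 2.

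Trim30d (chr7:104470014-104507849, minus strand) was higher with LPS at a very low level. Its counts were 0, 3 and 1 in control and 11, 16 and 12 in LPS libraries, which do not overlap. The ratio of summed counts was 10.7 (95% exact interval 3.86 to 41.2, counting error only), and the log2FC was 3.30 (SE 0.68, adjusted p = 0.00152). A prior count of 2 lowered it to 2.26, leaving out control replicate 1 gave 2.77 and leaving out control replicate 2 gave 4.51, leaving out control replicates 2 and 3 gave 6.73 (adjusted p = 0.0158), and the member was not tested under a filter at a mean of 10 counts. Trim30b (chr7:104355382-104369884, minus strand) lay below the filter, with 1, 0 and 0 counts in control and 10, 6 and 6 in LPS libraries, a ratio of 24.2 (95% exact interval 3.90 to 997, counting error only). With DESeq2 it had an adjusted p of 0.0167 at a log2FC of 4.49. In edgeR with control replicates 2 and 3 both left out, where it passed the filter, it was not called (log2FC 2.81, adjusted p = 0.176).

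Trim34b (chr7:104329471-104336909, plus strand) and Trim34a (chr7:104244457-104262234, plus strand) are the mouse counterparts of human TRIM34. Trim34b had 12, 15 and 18 counts in control and 150, 150 and 146 in LPS libraries, or 0.840 ± 0.134 and 9.18 ± 0.310 CPM (SD, n = 3). That is a log2FC of 3.43 (SE 0.20, adjusted p = 3.2e-09). Trim34a had 37, 9 and 22 counts in control and 110, 103 and 99 in LPS libraries, so its control libraries spread widely while its LPS libraries were close together. Its log2FC was 2.32 (SE 0.31, adjusted p = 3.2e-05), with 1.94 without control replicate 2, 2.89 without control replicate 1 and 1.57 with control replicates 2 and 3 both left out. Tested against the log2FC threshold of 1.5 itself (glmTreat in edgeR), Trim34a and Trim30d had adjusted p-values of 0.147 and 0.189 and were not called. The other 5 DEG were called.

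Trim12c (chr7:104338754-104353362, minus strand) belongs with Trim12a to the mouse relatives of TRIM5. It had 335, 258 and 320 counts in control and 960, 903 and 1019 in LPS libraries, or 17.1 ± 2.47 and 59.3 ± 3.73 CPM (SD, n = 3). Its log2FC was 1.79 (SE 0.09, adjusted p = 8.74e-10), the smallest of the 7 DEG. Trim12a (chr7:104299894-104315466, minus strand) had a single read, in LPS replicate 1. Trim5 (chr7:104263386-104288094, minus strand) had 1 read in control replicate 1 and 1 in LPS replicate 1, and Trim6 (chr7:104218793-104235152, plus strand) had none, so neither could be compared at this depth.

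These genes are copies of each other, and reads from identical stretches can be split or dropped when they are counted. Of all 100-base stretches in its transcripts, searched on both strands, Trim34b shared 30.5% with Trim34a. Trim34a shared 21% with Trim34b and 39% with all other genes together. Of the exon bases of Trim34a, 23.5% overlap the antisense gene Gm47248 on the opposite strand, which had 0 counts in all libraries. The share with other genes was 8.05% in Trim12c, mostly with Trim5, 4.41% in Trim30a and 4.57% in Trim30d. Summed over copies, Trim30a, b, c and d had 317, 337 and 389 counts in control and 2570, 2649 and 2489 in LPS libraries (log2FC 3.02, SE 0.06, adjusted p = 1.06e-14). Trim34a and b together had 49, 24 and 40 counts in control and 260, 253 and 245 in LPS libraries (log2FC 2.88, SE 0.18, adjusted p = 1.1e-08). Trim12a and c together gave 1.79 (SE 0.09, adjusted p = 8.7e-10), and so each sum was called as its most abundant copy was.

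The stretch around the array is otherwise nearly silent in N9 cells. It holds 145 genes within 1 Mb of Trim30a that are no members, 94 of them olfactory receptor genes by their description, and 135 had 0 counts in all 6 libraries. Only 3 were tested, too few to describe the stretch, and 0 were called at any fold (18.7% of all tested genes were higher and 15.7% lower). In edgeR's test the pseudogenes Dnajc19-ps (log2FC 0.29, SE 0.30, adjusted p = 0.51) and Gm5900 (0.13, SE 0.19, adjusted p = 0.664) and the gene Fam160a2 (-0.013, SE 0.09, adjusted p = 0.929) were far from the threshold.

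**Figure D2:**
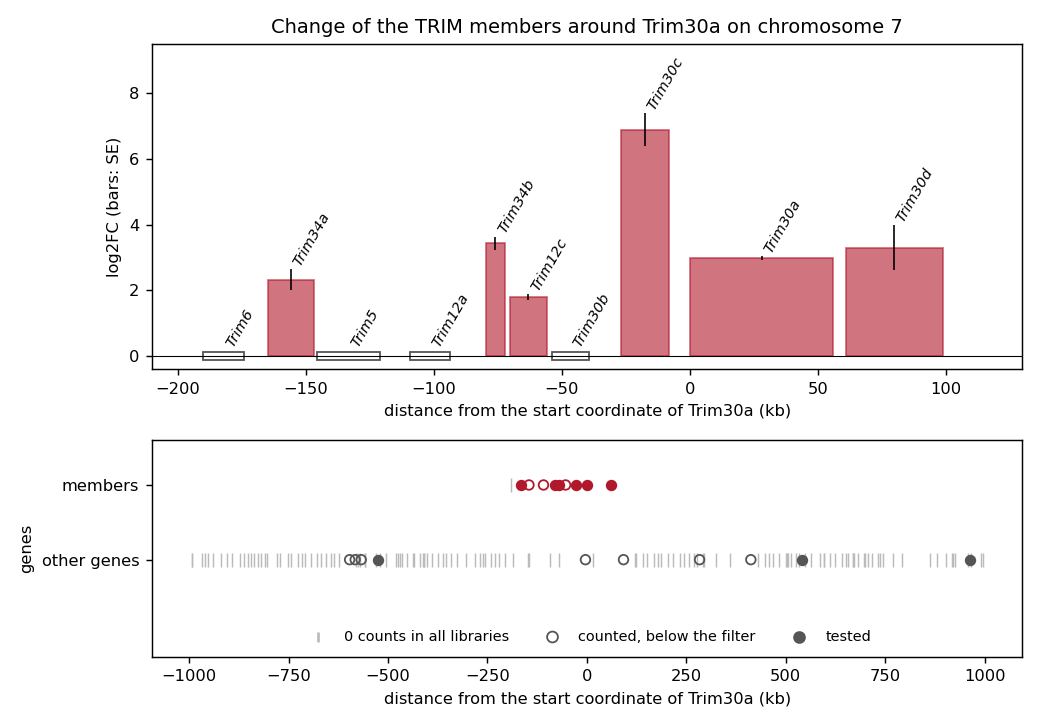
Upper panel: log2FC (bar height, with standard error) of the 10 members around Trim30a at their distance in kb from its start coordinate, with bar width as the gene's extent and hollow boxes for the 4 untested members. Lower panel: all genes within 1 Mb, as grey ticks where no library has a count, open circles where counted but below the filter and filled circles where tested, with 6 tested members and 3 other tested genes.

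Trim21 (chr7:102557921-102565486, minus strand) lies on the same chromosome outside that stretch. It encodes the cytosolic antibody receptor, which ubiquitinates antibody-coated particles. Its counts were 139, 121 and 149 in control and 541, 614 and 512 in LPS libraries, or 7.66 ± 0.698 and 34.3 ± 3.13 CPM (SD, n = 3). It was the 1 DEG outside the array, with a log2FC of 2.16 (SE 0.10, adjusted p = 4.54e-10). Its transcripts shared no 100-base stretch with another gene.

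**Figure D3:**
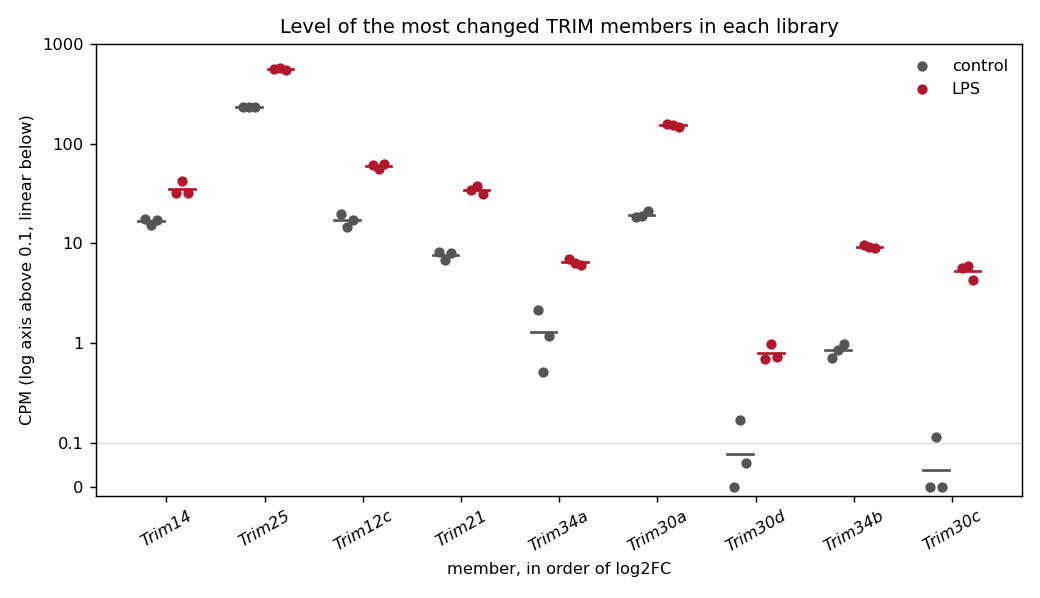
Each point is the level of a member in 1 library in CPM (y axis, logarithmic above 0.1 and linear below), with grey for control and red for LPS and a line at the mean of 3 libraries, for the 9 members that were called with a log2FC over 1. The 9 were chosen by their call, so their separation is not a further result, and Trim30c and Trim30d have control libraries at 0.

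The promoters of these 7 DEG are shown because several are known interferon-stimulated genes. Many genes of that kind carry an interferon-stimulated response element (ISRE) at the promoter. Each window runs from 250 bases before to 50 after the start annotated by RefSeq on GRCm38.p6, written 5′ to 3′ on the strand of the gene, and capitals mark each match to the ISRE core GAAANNGAAA or its reverse complement. The windows are Trim30a at chr7:104465144-104465443 (minus strand), Trim30d at chr7:104507800-104508099 (minus), Trim12c at chr7:104353300-104353599 (minus), Trim34a at chr7:104244207-104244506 (plus), Trim21 at chr7:102565433-102565732 (minus), Trim30c at chr7:104400729-104401028 (minus) and Trim34b at chr7:104329221-104329520 (plus).
Trim30a: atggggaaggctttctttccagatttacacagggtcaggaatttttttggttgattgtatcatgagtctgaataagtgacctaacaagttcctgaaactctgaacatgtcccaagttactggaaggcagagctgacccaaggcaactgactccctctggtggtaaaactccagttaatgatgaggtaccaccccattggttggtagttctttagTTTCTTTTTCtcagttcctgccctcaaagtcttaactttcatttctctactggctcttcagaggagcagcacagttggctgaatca
Trim30d: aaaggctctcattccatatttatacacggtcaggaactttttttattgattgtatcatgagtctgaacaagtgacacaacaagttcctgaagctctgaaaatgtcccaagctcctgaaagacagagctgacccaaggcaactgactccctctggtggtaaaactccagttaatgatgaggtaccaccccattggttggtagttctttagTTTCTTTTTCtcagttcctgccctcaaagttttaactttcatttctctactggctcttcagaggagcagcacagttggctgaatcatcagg
Trim12c: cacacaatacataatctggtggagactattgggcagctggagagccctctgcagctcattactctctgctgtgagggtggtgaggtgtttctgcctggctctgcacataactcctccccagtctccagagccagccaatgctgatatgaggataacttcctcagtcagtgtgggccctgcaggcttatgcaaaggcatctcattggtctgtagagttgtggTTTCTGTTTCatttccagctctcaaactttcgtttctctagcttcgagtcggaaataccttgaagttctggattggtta
Trim34a: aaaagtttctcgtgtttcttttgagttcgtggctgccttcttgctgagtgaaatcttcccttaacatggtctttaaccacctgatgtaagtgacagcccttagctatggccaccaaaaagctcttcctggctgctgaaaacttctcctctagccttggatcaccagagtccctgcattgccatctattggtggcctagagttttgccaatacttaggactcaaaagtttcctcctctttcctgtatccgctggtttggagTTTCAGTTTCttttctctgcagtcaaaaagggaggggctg
Trim21: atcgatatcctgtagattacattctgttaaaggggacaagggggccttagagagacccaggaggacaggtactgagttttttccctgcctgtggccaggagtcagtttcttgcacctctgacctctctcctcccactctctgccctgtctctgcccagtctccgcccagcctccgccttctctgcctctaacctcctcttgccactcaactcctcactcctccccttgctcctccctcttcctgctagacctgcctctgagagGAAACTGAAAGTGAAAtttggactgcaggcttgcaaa
Trim30c: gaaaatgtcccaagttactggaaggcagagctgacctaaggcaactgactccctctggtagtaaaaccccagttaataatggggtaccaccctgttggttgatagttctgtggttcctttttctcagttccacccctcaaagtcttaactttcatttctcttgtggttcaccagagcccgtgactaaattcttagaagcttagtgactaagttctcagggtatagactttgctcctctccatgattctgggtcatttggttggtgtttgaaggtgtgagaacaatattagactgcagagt
Trim34b: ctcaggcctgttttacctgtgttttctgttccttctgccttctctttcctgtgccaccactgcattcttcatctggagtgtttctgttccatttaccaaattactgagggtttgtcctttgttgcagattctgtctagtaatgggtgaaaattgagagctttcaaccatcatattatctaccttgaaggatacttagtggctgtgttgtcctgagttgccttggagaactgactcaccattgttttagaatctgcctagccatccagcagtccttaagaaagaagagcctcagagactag

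The ISRE core, searched on both strands, was in the windows of 5 of the 7 up-regulated DEG, and in 3.44% of all 32851 promoter windows of the same length. The first count is of genes, which can have more than 1 window, and the share is of windows. Of the 7, Trim30d (with a match) and Trim30c (without) passed the filter only through LPS libraries. The window of Trim30d is also 92.3% identical to that of Trim30a, so these matches are not separate cases. It began at -36 in Trim30a, at -41 in Trim30d, at -29 in Trim12c, at +11 in Trim34a, and at +14 and +20 in Trim21, where the 2 matches overlap. A further RefSeq start of Trim30a, with its window at chr7:104446076-104446375, held a match at +3. No match was found in the windows of Trim30c and Trim34b. In an alignment of the windows, the stretch of Trim30c opposite the Trim30a match differed from it by 1 substitution, T3C, counted from 1 at the first base of the match on the strand of the gene, and that of Trim30d was identical. The gamma-activated site TTCNNNGAA was in 1 of the 7 (Trim30c, at -62) and in 8.3% of all windows. The NF-kappa B core GGGNNNTTCC was in none of the 7 and in 5.56% of all windows. These are letter matches and not measured binding.

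Among the other members with a promoter in the table, which covered 53 of 68, the ISRE core was in 1 of 4 that were higher without being DEG (Trim26, at -160 and -154), in 1 of 6 that were lower (Trim2, at +29) and in 0 of 12 that did not pass the test. It was in 2 of 24 untested members, Trim5 at -49 and Trim12a at +11, the near-silent relatives of Trim12c. The windows of Trim5 and Trim12c are identical at 88.3% of bases and those of Trim12a and Trim12c at 82.7%, while their levels in LPS libraries were at most 1 count and at least 903 counts. Trim30a and Trim30d are identical at 92.3%, with LPS levels of 152 and 0.801 CPM. Apart from Trim5 and Trim12a (80.3%), every other pair of windows in the array lies between 56.3% and 62.3%, Trim34a and Trim34b included. Unrelated windows were not aligned, so this range does not measure relatedness. Identity is over the whole window, and a stretch shared at different distances from the start is aligned with gaps. Trim30a and Trim30c, at 60%, share a long near-identical stretch that lies further before the start in Trim30c.

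**Figure D4:**
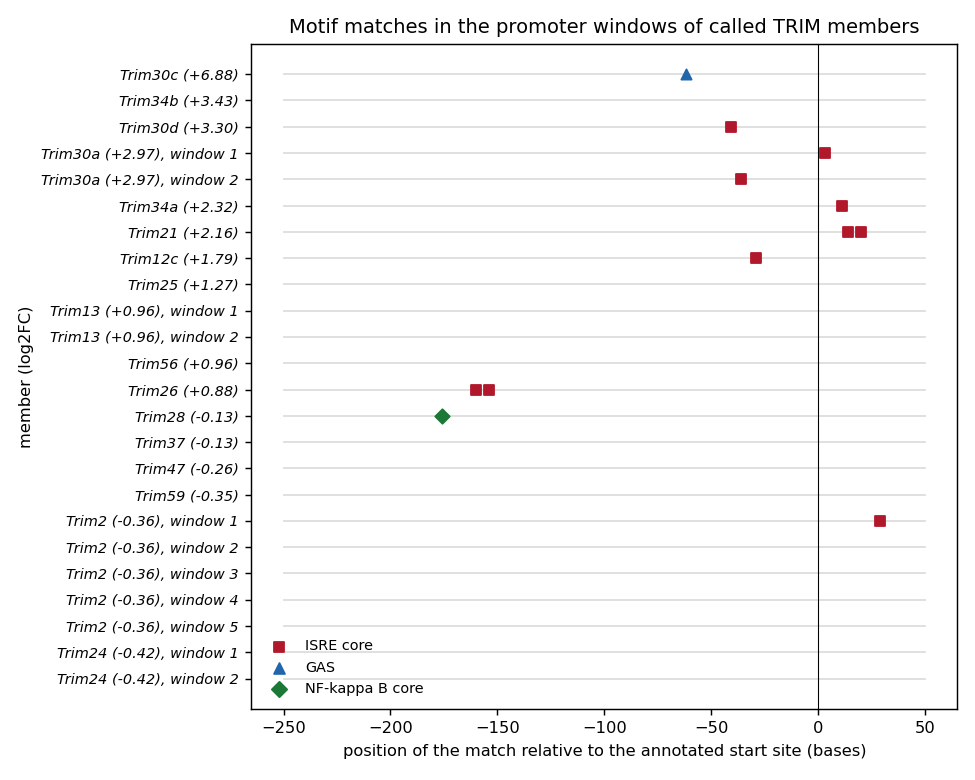
Each row is a promoter window of a called member with its log2FC in brackets (y axis), and symbols mark motif matches by distance in bases from the annotated start (x axis), with squares for the ISRE core, triangles for the gamma-activated site and diamonds for the NF-kappa B core. Squares stand in 5 of the 7 DEG, all between -41 and +20, and elsewhere in Trim26 and Trim2.

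Outside the array, 20 members were listed here as known regulators of innate immune signalling, of which 17 were tested. Members were placed in a single group each, so the counts and median hold for this list alone. Besides Trim21, 7 rose by less than the DEG fold, 2 fell and 7 did not pass the test, beside 18.7% of all tested genes higher and 15.7% lower at any fold, with a median log2FC of 0.13. Trim31, Trim38 and Trim40 had 0 counts in all libraries.

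Trim25 (chr11:88999376-89020293, plus strand), the ligase that ubiquitinates and activates RIG-I, had the largest gain in reads of the family. Its counts were 3995, 4136 and 4317 in control and 8852, 9409 and 9070 in LPS libraries, or 233 ± 1.12 and 562 ± 10.8 CPM (SD, n = 3). The log2FC was 1.27 (SE 0.04, adjusted p = 1.73e-12), between 1.25 and 1.28 over all alternatives tried. Its promoter window held none of the 3 motifs.

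Trim14, which lacks a RING finger and acts as an adaptor in RIG-I and cGAS signalling, had 301, 271 and 315 counts in control and 501, 687 and 519 in LPS libraries, with LPS replicate 2 the highest. Its log2FC was 1.08 (SE 0.11, adjusted p = 2.33e-06). Of its exon bases 31.3% are shared on the opposite strand with Nans, a sialic acid synthase gene, and the use of strand in counting is not given in the sources used here, so reads from this stretch cannot be told apart. Nans itself moved the other way, with 2302, 2085 and 2234 counts in control and 1671, 1722 and 1652 in LPS libraries (log2FC -0.26, SE 0.05, adjusted p = 0.00169).

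Trim56, an antiviral ligase linked to cGAS and STING, had 897, 1017 and 1014 counts in control and 1565, 1811 and 1816 in LPS libraries (log2FC 0.96, SE 0.06, adjusted p = 4.89e-09). Trim26, linked to the turnover of IRF3, had 962, 991 and 1064 in control and 1605, 1791 and 1660 in LPS libraries (log2FC 0.88, SE 0.05, adjusted p = 2.55e-09). These are folds of 1.95 and 1.84, with no overlap between the groups. Trim13, a ligase of the endoplasmic reticulum, was less even, with 76, 52 and 113 counts in control and 154, 129 and 144 in LPS libraries (log2FC 0.96, SE 0.21, adjusted p = 0.00203).

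Smaller rises were called in Trim11 (log2FC 0.33, SE 0.11, adjusted p = 0.0245) and Trim35 (0.15, SE 0.05, adjusted p = 0.0181), and both calls depended on single libraries. With DESeq2 Trim11 was not called (adjusted p = 0.0795). Trim11 was 0.31, 0.29 and 0.25 and not called without control replicate 1, control replicate 2 or LPS replicate 3. Trim35 was 0.14, 0.12 and 0.14 and not called without control replicate 2, control replicate 3 or LPS replicate 1.

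Of the 2 that fell, Trim29, which lacks a RING finger and is known to restrain STING and NEMO signalling in other cells, had 84, 70 and 104 counts in control and 37, 39 and 43 in LPS libraries. The groups do not overlap, at 4.82 ± 0.816 and 2.45 ± 0.149 CPM (SD, n = 3), and its log2FC of -0.98 (SE 0.20, adjusted p = 0.00165) was the largest fall called in the family. Trim8, linked to TAK1 and NF-kappa B, fell by 0.17 on the log2 scale (SE 0.05, adjusted p = 0.0226), and by 0.14 with no call without LPS replicate 1 or LPS replicate 3.

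The 7 of this group that did not pass the test had log2FC between -0.11 (Trim62) and 0.13 (Trim44). They include Trim65, a ligase for MDA5, at -0.0091 (SE 0.09, adjusted p = 0.952), and Trim27 at 0.040 (SE 0.05, adjusted p = 0.587) with 104 ± 2.52 and 107 ± 5.52 CPM (SD, n = 3). Trim44 was called without LPS replicate 1, at 0.21. The others were Trim23 (-0.012), Trim41 (-0.0036) and Trim68 (-0.072).

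Of the 4 TIF1 members, nuclear proteins with a PHD finger and a bromodomain that act on transcription, 3 were tested and these 3 were lower at any fold, beside 15.7% of all tested genes. Trim28, the corepressor of KRAB zinc finger proteins, had 6557, 6603 and 7462 counts in control and 5588, 5730 and 5883 in LPS libraries, or 386 ± 13.9 and 354 ± 4.40 CPM (SD, n = 3). Its log2FC was -0.13 (SE 0.04, adjusted p = 0.0261), with no call at -0.10 without control replicate 3 and at -0.12 without LPS replicate 2. Trim33, a partner of SMAD proteins, fell by 0.21 (SE 0.06, adjusted p = 0.00769) and Trim24, a coregulator of nuclear receptors, by 0.42 (SE 0.11, adjusted p = 0.00868), and these 2 calls held whichever single library was left out. With control replicates 2 and 3 both left out none of the 3 was called, at -0.11, -0.18 and -0.24. The remaining TIF1 member, Trim66, had at most 3 counts in a library.

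Of the NHL repeat members, Trim2, a ligase for neurofilament light chain, fell by 0.36 (SE 0.09, adjusted p = 0.00492), from 22.9 ± 0.941 to 17.9 ± 0.954 CPM (SD, n = 3), and was not called with control replicates 2 and 3 both left out (-0.28, adjusted p = 0.144). Trim3 (log2FC -0.16, SE 0.10, adjusted p = 0.217) and Trim32 (-0.015, SE 0.06, adjusted p = 0.884) did not pass the test, and Trim71, a gene of stem cells, had 0 counts. The members grouped here by their COS box, which bind microtubules, were low. Trim36 (-0.31, SE 0.18, adjusted p = 0.216) and Trim46 (0.0067, SE 0.15, adjusted p = 0.978) did not pass, and Trim9 and Trim67 were below the filter.

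The members best known from muscle were at the edge of detection. Trim63 (MuRF1) had 37, 32 and 33 counts in control and 9, 25 and 15 in LPS libraries (log2FC -0.92, SE 0.35, adjusted p = 0.0535), which do not overlap. Trim7 had 29, 18 and 28 in control and 5, 23 and 9 in LPS libraries (-0.88, SE 0.45, adjusted p = 0.152), which overlap. LPS replicate 2 was the highest LPS library for both, and without it both were called, Trim63 at -1.35 and Trim7 at -1.68. Trim7 was thereby the only down-regulated DEG of any fit. Without any other single library neither was called, and the log2FC was as small as -0.65 for Trim63 and -0.52 for Trim7. Trim63 was also called lower without the filter on low counts, at -0.93 (adjusted p = 0.0392, or 0.0498 with robust dispersion), and with protein-coding genes alone, at -0.92. Markers of skeletal and heart muscle summed to 0.876 to 5.16 CPM in control, highest in replicate 3, and 0.507 to 1.10 CPM in LPS libraries, and their part in these values was not tested. Trim54, Trim55 and Trim72 had at most 3 counts in a library.

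Of the 21 members in no such group, 6 were tested. Trim16, which lacks a RING finger and acts in the autophagy of damaged membranes, had 139, 153 and 143 counts in control and 197, 197 and 216 in LPS libraries (log2FC 0.62, SE 0.11, adjusted p = 5.8e-04). Trim59, a membrane-anchored member, went from 56.5 ± 0.348 to 44.2 ± 0.580 CPM (SD, n = 3), a fall of 0.35 on the log2 scale (SE 0.05, adjusted p = 1.16e-04) with little spread in either group. Trim47 fell by 0.26 (SE 0.09, adjusted p = 0.0421) and Trim37, a centrosomal and peroxisomal ligase, by 0.13 (SE 0.05, adjusted p = 0.0381). Both calls were lost with DESeq2 and without single libraries. Trim47 was not called without control replicate 1 (-0.26), control replicate 3 (-0.22), LPS replicate 1 (-0.29) or LPS replicate 2 (-0.19). Trim37 was not called without control replicates 1, 2 or 3 (-0.13, -0.15 and -0.15) or LPS replicates 1 or 2 (-0.10 and -0.14). Trim39 (-0.031) and Trim45 (0.012) did not pass the test.

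In all, 29 members were untested, and 14 of them had 0 counts in every library, which allows up to 3 counts per library or 0.161 to 0.190 CPM. These were Trim6, Trim10, Trim31, Trim38, Trim40, Trim42, Trim52, Trim55, Trim58, Trim60, Trim61, Trim71, Trim75 and Trim80. The other 15 had between 1 and 10 counts in their highest library, and Trim30b was the highest of these.

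Compared per kilobase of gene length, the order of the family changed with LPS. In control libraries the highest levels were those of Trim28 (92.9 ± 3.34 RPKM, that is CPM per kilobase), Trim8 (42.9 ± 1.12), Trim25 (40.5 ± 0.194) and Trim35 (35.7 ± 1.35), and each of these 4 lay above the next in all 3 libraries (SD, n = 3). In LPS libraries Trim25 came first at 97.7 ± 1.88 RPKM and Trim28 second at 85.1 ± 1.06. Trim35 (39.6 ± 0.733), Trim8 (38.3 ± 2.48) and Trim30a (37.0 ± 1.27) followed, of which Trim35 and Trim8, and Trim8 and Trim30a, overlapped between their libraries. Trim30a moved from place 16 of 39 to place 5, Trim12c from 17 to 7, Trim21 from 24 to 14, Trim34b from 36 to 21 and Trim30c from 38 to 24. Trim30d stayed among the lowest, at 0.213 ± 0.0405 RPKM with LPS. These are levels relative to the length listed in the table, and a gene with several transcripts may be placed too low or too high.

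**Figure D5:**
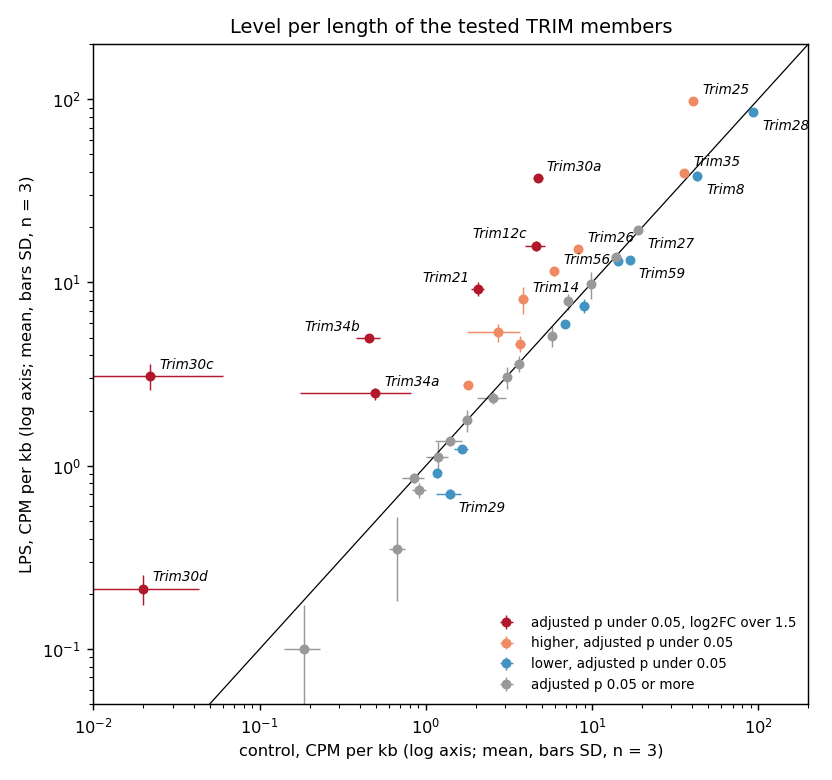
Each point is a tested member, with its mean level in control (x axis) and LPS libraries (y axis) in CPM per kb on logarithmic axes and bars for the SD of 3 libraries, cut at the axis where they reach 0. Points above the diagonal are higher with LPS, and among them are Trim25 (40.5 to 97.7), Trim30a (4.71 to 37.0) and Trim12c (4.58 to 15.9).

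The sum over the family rose from 1752 ± 12.6 CPM in control to 2357 ± 30.3 CPM in LPS libraries (SD, n = 3), a ratio of 1.35 and a difference of 605 CPM. Trim25 made up 54.4% of this difference, at 329 CPM, and Trim30a 21.9%, at 133 CPM. As a share of the family's level, Trim25 went from 13.3% to 23.9% and Trim30a from 1.11% to 6.45%, while Trim28 went from 22% to 15%. The large folds of Trim30c, Trim30d and Trim34a were of low levels, adding 5.26, 0.727 and 5.14 CPM.

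Relatives of the family without a Trim number, the signalling proteins on which TRIM ligases act and the enzymes that supply them with ubiquitin were listed for comparison. Of 11 relatives 4 were tested, too few to describe the list. Of these 4, 1 was an up-regulated DEG (beside 2.4% of all tested genes), and no other was called. This was Pml, the scaffold of nuclear bodies and a known interferon-stimulated gene. Pml had 485, 552 and 453 counts in control and 1198, 1444 and 1210 in LPS libraries, with a log2FC at the DEG fold itself (1.502, SE 0.09, adjusted p = 3.97e-09). Mid1, Rnf135 and Fsd1l did not pass the test. Mefv, which encodes pyrin, was untested with 0, 0 and 0 counts in control and 6, 5 and 0 in LPS libraries.

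All 19 signalling partners were tested, with 10 higher (beside 18.7% of all tested genes), 1 lower (beside 15.7%) and 8 not called, and a median log2FC of 0.24. The 5 up-regulated DEG (beside 2.4% of all tested genes) were the RIG-I gene Ddx58 (log2FC 4.41, SE 0.07, adjusted p = 1.7e-15), Irf7 (3.97), the MDA5 gene Ifih1 (3.52), Nod2 (2.22) and Nlrp3 (1.53). Ddx58, whose product is a known substrate of Trim25, went from 8.03 ± 0.785 to 171 ± 9.16 CPM (SD, n = 3). Smaller rises were called in Ticam1 (0.81, adjusted p = 1.73e-06), the cGAS gene Mb21d1 (0.50, adjusted p = 4.6e-06), Tbk1 (0.46, adjusted p = 1.88e-04), Ikbkg (0.25, adjusted p = 0.00722) and Traf3 (0.24, adjusted p = 0.00207). Among those not called, Mavs was at 0.027 (adjusted p = 0.793), the STING gene Tmem173 at -0.11 (adjusted p = 0.148), Tab2 at 0.026 (adjusted p = 0.748) and Tab3 at -0.049 (adjusted p = 0.789). Card9 fell by 0.32 (SE 0.08, adjusted p = 0.00517).

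Of 13 E2 enzyme and ubiquitin genes, all tested, 5 rose (beside 18.7% of all tested genes), 1 fell (beside 15.7%) and 7 did not pass the test, none was a DEG, and the median log2FC was 0.084. Ube2l6, the E2 enzyme of ISG15, rose by 0.53 (SE 0.06, adjusted p = 2.75e-06) and Ube2e2 by 0.58 (SE 0.10, adjusted p = 3.03e-04). Ubb rose by 0.34 and Ube2d3 by 0.23. Ube2e3 fell by 0.25 (SE 0.07, adjusted p = 0.0118). Ube2n, the E2 enzyme used by Traf6, was at 0.084 (SE 0.05, adjusted p = 0.255).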

How the data were processed

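RNA-seq was performed on 6 libraries, 3 per group. The authors deposited whole-number read counts per gene, without normalization, for 54532 genes, and the submitters' processing notes name featureCounts 1.5.0-p3 and mm10. The aligner and the use of strand are not given in the sources used here. The deposited gene length, a column of other unit in bases, served for RPKM. A deposited table of the authors' comparison (log2 fold changes, p-values and 18 further value columns) was not used.

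Counts were tested with edgeR version 4.0.16 under R 4.3.3, using TMM, filterByExpr by group (10 counts, here 0.589 CPM), the quasi-likelihood test (prior degrees of freedom 10.1), a prior count of 0.125 for log2FC, no replicate term and Benjamini-Hochberg adjustment over 12296 genes. On simulated counts, it recovered 100 of 100 genes changed 2-fold and 100 of 100 changed 4-fold among 12310 tested, with 10 false calls. The changed genes were drawn among well-counted genes and all genes had the same fixed dispersion, so this recovery does not cover members with low counts. Exact intervals cover counting error only, since PCR copies of a molecule are not told apart in these reads. With 3 against 3 samples a single-value permutation test cannot go below 0.1 and was not run.

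The members and lists were chosen with earlier results of these data known. Named in full are members called with a log2FC beyond 1 and those within 1 Mb of Trim30a, then by role the called members and the levels. A planned comparison of protein sequences was not made. The values of 1 listed gene are not reported here. Promoters were taken from RefSeq (GRCm38.p6), shared stretches and exon overlaps from GENCODE M21 on GRCm38, where 66 of 68 members had the same coordinates, and alignments were made with Biopython 1.88 under Python 3.11.15. Alternatives were DESeq2 1.42.0, RLE size factors, no filter (also with robust dispersion), a mean filter of 10, glmTreat, a prior count of 2, protein-coding genes alone, summed paralogs, a replicate block, each library left out and, chosen after seeing the data, control replicates 2 and 3 both left out.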

Additional observations from a re-analysis of the deposited data

How the results depend on the processing

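The count of up-regulated DEG was 7 in every fit with 1 library left out, with RLE size factors, a prior count of 2, protein-coding genes alone and the replicate block. It was 8 with DESeq2 and without the filter (with and without robust dispersion), which added Trim30b, 6 under the mean filter of 10 counts, which left Trim30d untested, and 5 with glmTreat, which tests the DEG fold alone. Members higher at any fold numbered 13 to 16, beside 15. Members lower numbered 6 to 10, beside 9, except with control replicates 2 and 3 both left out, which leaves 4 samples and gave 7 up-regulated DEG, 13 higher and 2 lower members and a median of 0.079. Down-regulated DEG ranged from 0 to 1 when a library was left out, the 1 being Trim7 without LPS replicate 2. With the median at -0.0036, the other alternatives gave -0.011 to 0.033. In all 6 leave-one-out fits 7 of 7 up-regulated DEG, 6 of 8 other higher members and 5 of 9 lower members kept their call.

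Signs changed only among members that did not pass the test. Trim46 was -0.00078 without the filter, also with robust dispersion. With a library left out, the log2FC ranged from -0.10 to 0.099 in Trim46, -0.085 to 0.058 in Trim65, -0.17 to 0.11 in Trim39, -0.11 to 0.084 in Trim45, -0.13 to 0.11 in Trim41, -0.072 to 0.10 in Trim23, -0.24 to 0.052 in Trim68, -0.060 to 0.023 in Trim32 and -0.24 to 0.049 in Trim62. With control replicates 2 and 3 both left out, Trim23 was 0.019, Trim39 0.27, Trim45 -0.14, Trim65 0.092 and Trim68 0.13.

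The replicate block gave 7 up-regulated DEG, 15 higher and 9 lower members and changed no member's call. Deviations of same-numbered samples correlated at 0.14, 0.059 and -0.0042. These values show no clear pairing, and the labels do not say whether same-numbered samples were prepared together. At this depth a member with at most 3 counts in every library could not be compared.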
